A study of Mus musculus with 8 samples.

Results

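The genes that flank Slc25a28 on mouse chromosome 19 were examined in livers whose hepatocytes lack both mitoferrins. Slc25a28 encodes mitoferrin 2, a carrier that brings iron into mitochondria. Flanking genes were defined by position, as genes of the deposited table whose start lies within 20 Mb of the start of Slc25a28. Start here means the lower coordinate of a gene on either strand, and distances run between these, except for promoters and RefSeq starts. Slc25a28 itself and the other symbols of the Slc25a, Cyp, Scd, Elovl and Mrp families, with Abcc2, were left out. Of the 15864 genes in the table, 265 lay in the window, 24 were left out by symbol and 241 remained, 129 before Slc25a28 (at lower coordinates) and 112 after it. The rule itself uses position and symbol, not measured values.

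The 5 knockout livers carried Alb-cre, which expresses Cre recombinase in hepatocytes from the albumin promoter, with the genotype Mfrn1-/- Mfrn2 -/- for the genes Slc25a37 and Slc25a28. The 3 control livers were labelled as wild type and came from mice of matched age, and nothing in the labels says that they carried Alb-cre. All mice ate standard chow. Sex, age, strain background, and the exons removed from each allele were not stated in the labels. The design text calls the loss specific to hepatocytes.

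A targeted allele is inherited together with the DNA around it. Where the allele was made in cells of one mouse strain and crossed into another, genes near the target can keep the sequence of the first strain, and genes linked to a target can then differ in expression for a reason other than the loss of the target. The comparison asks whether the neighbours of Slc25a28 differed between knockout and control livers more often than genes elsewhere, and whether they did so with nearness to Slc25a28. Had the controls carried the same targeted allele without Cre, both groups would share the DNA around it. The comparison could then show no linked difference. The stretch itself holds no single pathway. Close to Slc25a28 lie Cox15, whose product makes the heme A of cytochrome c oxidase, and Got1, the cytosolic aspartate aminotransferase. Farther out lie genes of the secreted liver proteins Rbp4 and Mbl2 and of the mitochondrial peroxidase Prdx3.

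Promoters of the deleted gene and of the flanking genes on which the description turns are shown 5′ to 3′ from RefSeq (GRCm38.p6), from 250 bases before to 50 bases after the annotated start. Capitals mark the GC box (GGGCGG or its complement CCGCCC), the CCAAT box (CCAAT or ATTGG) and the TATA box (TATAAA or TTTATA), searched on both strands. Slc25a28 (chr19:43674832-43675131, minus strand) is the deleted gene. Cutc (chr19:43752773-43753072, plus strand) and Cox15 (chr19:43752951-43753250, minus strand) are a divergent pair among its nearest neighbours. Cwf19l1 (chr19:44135407-44135706, minus strand) was the nearest flanking gene whose knockout and control samples did not overlap. Dntt (chr19:41029025-41029324, plus strand) and Blnk (chr19:40994172-40994471, minus strand) are neighbours with higher mean levels in knockout livers, with overlap of the groups for Blnk.
Slc25a28: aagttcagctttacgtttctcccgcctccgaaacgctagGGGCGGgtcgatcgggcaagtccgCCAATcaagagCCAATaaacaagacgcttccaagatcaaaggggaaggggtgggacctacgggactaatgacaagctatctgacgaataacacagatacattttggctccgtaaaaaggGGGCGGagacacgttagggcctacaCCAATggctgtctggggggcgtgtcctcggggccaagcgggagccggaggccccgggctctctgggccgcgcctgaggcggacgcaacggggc
Cutc: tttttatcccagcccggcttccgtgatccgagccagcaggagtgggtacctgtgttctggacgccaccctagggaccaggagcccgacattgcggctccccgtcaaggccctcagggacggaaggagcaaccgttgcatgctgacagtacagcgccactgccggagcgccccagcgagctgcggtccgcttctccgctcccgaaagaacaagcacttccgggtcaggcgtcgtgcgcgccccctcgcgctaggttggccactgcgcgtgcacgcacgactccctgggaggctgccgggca
Cox15: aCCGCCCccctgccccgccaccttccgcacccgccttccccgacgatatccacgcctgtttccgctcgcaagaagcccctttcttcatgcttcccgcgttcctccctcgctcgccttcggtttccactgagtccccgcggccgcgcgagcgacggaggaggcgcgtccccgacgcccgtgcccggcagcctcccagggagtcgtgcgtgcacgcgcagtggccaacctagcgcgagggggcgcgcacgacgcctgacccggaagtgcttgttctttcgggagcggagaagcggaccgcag
Cwf19l1: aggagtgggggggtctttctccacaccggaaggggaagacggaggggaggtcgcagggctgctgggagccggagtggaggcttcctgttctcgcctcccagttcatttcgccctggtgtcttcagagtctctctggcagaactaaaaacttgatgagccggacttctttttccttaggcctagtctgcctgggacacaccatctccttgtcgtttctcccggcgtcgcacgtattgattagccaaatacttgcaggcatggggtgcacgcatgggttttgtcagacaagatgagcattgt
Dntt: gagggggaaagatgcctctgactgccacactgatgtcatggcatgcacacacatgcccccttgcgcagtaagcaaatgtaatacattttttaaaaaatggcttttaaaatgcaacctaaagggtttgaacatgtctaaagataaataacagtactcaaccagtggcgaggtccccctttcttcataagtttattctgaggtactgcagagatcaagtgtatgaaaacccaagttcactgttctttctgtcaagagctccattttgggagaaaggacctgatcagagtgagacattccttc
Blnk: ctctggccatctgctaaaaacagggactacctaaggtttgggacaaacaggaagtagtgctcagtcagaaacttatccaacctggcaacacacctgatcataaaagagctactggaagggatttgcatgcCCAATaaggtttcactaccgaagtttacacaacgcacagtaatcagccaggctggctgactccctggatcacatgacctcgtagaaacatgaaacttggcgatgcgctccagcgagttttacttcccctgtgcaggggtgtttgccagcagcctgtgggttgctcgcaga
The Slc25a28 window held 2 GC boxes and 3 CCAAT boxes. The Cutc and Cox15 windows overlap by 122 bases, and their starts lie 23 bases apart on opposite strands. Cox15 has 42 CpG pairs and 1 GC box, Cutc has 29 CpG pairs and none of the motifs, and Dntt has 2 CpG pairs and none of the motifs. Of the 226 flanking genes that could be tested, 179 had a RefSeq promoter by symbol. A GC box was found in 61.6% of the 237 promoters of these genes and in 35.7% of all 32851 promoters of the table. The CCAAT box was found in 37.6% of the flanking promoters and 37.4% of all promoters, and the TATA box in 7.6% and 13.6%. The sets are unlike: the flanking promoters belong to genes with enough liver counts to be tested, while all promoters were taken regardless of counts. The median number of CpG pairs was 20 in the flanking promoters and 7 in all. Whether these shares go with position was not tested.

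Read counts per gene were compared in 5 knockout and 3 control libraries with totals of 24.6 to 31.9 M counts in knockout and 35.5 to 43.1 M in control, so each knockout library was shallower than each control library. The labels number the samples as replicates without naming animals, so each p-value reflects only the spread among these libraries, which may be technical. Levels are given as CPM, the reads of a gene per M reads of its library after scaling between libraries. Sample titles begin with 82 or 85: knockout replicates 1 to 3 are numbered 85, and knockout replicates 4 and 5 and all controls are numbered 82. Hepatocyte markers summed to 88992 to 98451 CPM in knockout and 88532 to 92969 CPM in control, and none of the tested markers of 8 cell types passed after adjustment. The neutrophil markers S100a8 and S100a9 summed to 0.851 to 3.27 CPM in knockout and 3.52 to 10.9 CPM in control, without overlap, and their part in the results was not tested. In bulk liver, fewer cells of a type and less RNA per cell cannot be told apart. Slc25a28 stood at 0.753, 0.731, 0.592, 0.888 and 0.662 CPM in the knockouts, against 18.1, 16.6 and 16.6 CPM in the controls (log2 fold change -4.56 ± 0.128 SE, edgeR adjusted p = 1.92e-07).

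No flanking gene differed between knockout and control livers by edgeR after adjustment. Of the 241 flanking genes, 226 had enough counts to be tested, 119 before and 107 after Slc25a28. After Benjamini-Hochberg adjustment over all 14664 genes tested, edgeR's quasi-likelihood test called 0 flanking genes, against 0.109% of all genes, and limma-voom also called 0, against 0.123% of all genes. DESeq2 called 2, Dntt and 1500017E21Rik, which is 0.885% of the flanking genes against 1.66% of all genes. At an unadjusted edgeR p under 0.05 stood 30 flanking genes, or 13.3%, against 10.4% of all genes. Of these, 16 were higher in knockout, where the share of all genes was 5.67%, and 14 were lower, where it was 4.68%. In 18 flanking genes, or 7.96%, all knockout samples lay on one side of all control samples, against 6.94% of all genes. In 10 of them the knockouts were higher (3.2% of all genes) and in 8 lower (3.74%). The median log2 fold change was 0.02 over the flanking genes and 0.00 over all genes, and the median of its size without sign was 0.14 and 0.13. These shares were near those of all genes tested. A fold change beyond 2-fold was found in 4 flanking genes (1.77%, against 2.31% of all genes), namely 1500017E21Rik and, at mean levels under 1 CPM in both groups, Ankrd2, Col17a1 and Gsto2, named after their values were seen. Among the symbols left out of the set, 7 of 21 tested genes (33.3%) stood at an unadjusted p under 0.05, against 13.3% of the flanking genes, and DESeq2 called Cyp2c50, Elovl3 and Cyp17a1, of which edgeR called none.

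The 15 flanking genes that were not tested had at most 30 counts in any library. Among them are the centrosome gene Cep55 with 38 counts over the knockouts and 17 over the controls, the axon guidance gene Slit1 with 36 and 27, and Ankrd22 with 51 and 7. Cnnm1, 223 kb before Slc25a28, had 29 counts over the knockouts and 17 over the controls.

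With all 8 libraries, the share of genes at a low p was not highest next to Slc25a28, but on omission of knockout replicate 3 alone it was. Within 2 Mb, 4 of 46 tested genes (8.7%) stood at an unadjusted p under 0.05, all 4 lower in knockout. At that p, 4.68% of all genes were lower and 5.67% higher. In either direction, there were 9 of 54 (16.7%) between 2 and 5 Mb and 3 of 40 (7.5%) between 5 and 10 Mb. Between 10 and 20 Mb there were 14 of 86 (16.3%), and the share of all genes in both directions was 10.4%. Genes whose groups did not overlap were 2 of 46 within 2 Mb (4.35%), and 4 of 54 (7.41%), 1 of 40 (2.5%) and 11 of 86 (12.8%) in the farther ranges, against 6.94% of all genes. Across the 226 genes, Spearman's rho between distance and the size of the log2 fold change was 0.03, a description over genes that share the same 8 libraries. Without knockout replicate 3, the range within 2 Mb had the highest share at that p, with 10 of 46 genes (21.7%) against 14.8%, 7.89% and 19.5% in the farther ranges and 13.7% of all genes. The share without overlap within 2 Mb was then 17.4%, against 16.7%, 7.89% and 14.9% farther out and 12.7% of all genes. Without control replicate 3, the range within 2 Mb had 7 of 47 genes at that p (14.9%, against 12.1% of all genes) and 10 without overlap (21.3%, against 17.1% of all genes). On omission of any other single library, its share at that p lay between 6.38% and 8.7%. In the samples numbered 82 alone, 5 of 47 genes within 2 Mb stood at that p (10.6%), against 8.93% of all genes. The farther ranges there had 12.7%, 4.88% and 6.82%. Without overlap there were 12 of 47 genes within 2 Mb (25.5%), against 26.8% of all genes.

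**Figure D1:**
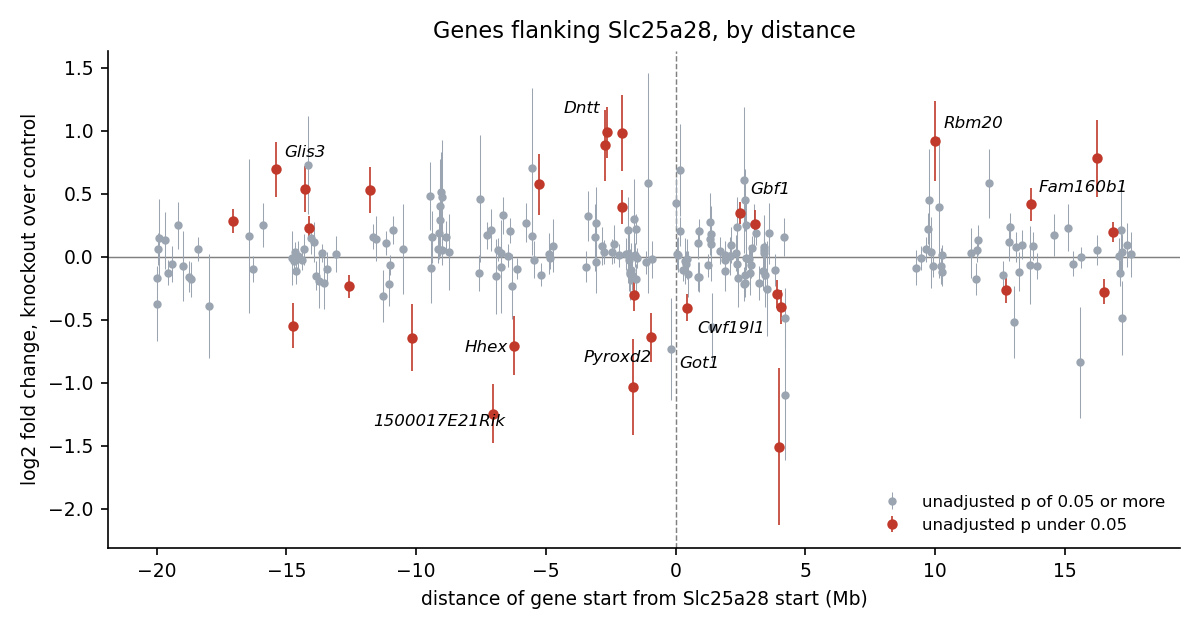
Log2 fold change of each of the 226 tested genes (points, with standard errors) by the distance in Mb of its start from that of Slc25a28, negative before and positive after it; red marks an unadjusted p under 0.05. The 30 red points are spread over the whole window, with 4 of them within 2 Mb.

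On both sides of Slc25a28 some genes stood at a low p. Before Slc25a28, 18 of 119 genes (15.1%) stood at an unadjusted p under 0.05, and after it 12 of 107 (11.2%), both against 10.4% of all genes. Within 2 Mb there were 3 of 21 before (14.3%) and 1 of 25 after (4%). Between 2 and 5 Mb there were 4 of 17 before (23.5%), all higher in knockout (5.67% of all genes), and 5 of 37 after (13.5%). Fold changes were positive in 82.4% of those 17 genes and 48.6% of those 37, against 49.2% of all genes. The farther ranges had 3 of 33 (9.09%) and 8 of 48 (16.7%) before, and 0 of 7 and 6 of 38 (15.8%) after. The rest of chromosome 19, below the window, had 18 of 277 genes (6.5%) at that p, and genes on other chromosomes had 1462 of 14139 (10.3%). Within 20 Mb of the other deleted gene, Slc25a37 on chromosome 14, the share was 51 of 244 (20.9%), with 3 genes called after adjustment. Whether these sets of genes differ was not tested. At the lower edge of the window Gm6563 (19.99 Mb before Slc25a28) and Ptar1 (19.98 Mb) are the outermost flanking genes, with log2 fold changes of -0.38 and -0.17, and Mamdc2 (20.4 Mb) lies just outside with 0.12. At the upper end the last listed gene, Csf2ra, lies 17.6 Mb after Slc25a28, so the window ends there with the table.

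**Figure D2:**
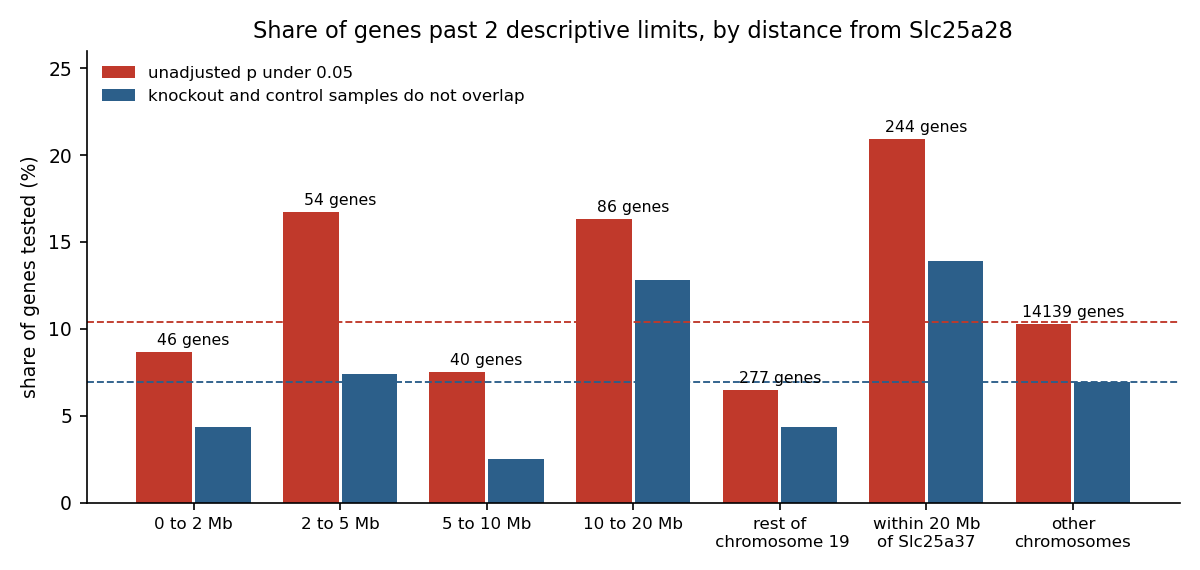
Share in percent of tested genes with an unadjusted p under 0.05 (red) and with knockout and control samples that do not overlap (blue), by distance from Slc25a28, for the rest of chromosome 19, around Slc25a37 and on other chromosomes. Dashed lines mark all genes tested, at 10.4% and 6.94%, and the range within 2 Mb lies below both with all 8 libraries, but above both shares of all genes without knockout replicate 3 (21.7% against 13.7%, and 17.4% against 12.7%) and without control replicate 3 (14.9% against 12.1%, and 21.3% against 17.1%). In the samples numbered 82 the range lay above the first share (10.6% against 8.93%) and below the second (25.5% against 26.8%).

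None of the 6 nearest tested genes on each side of Slc25a28 passed the test, and all of them overlapped between the groups. Entpd7 (ENSMUSG00000025192, plus strand of chromosome 19, 43689672 to 43733697), a nucleotide-cleaving enzyme of internal membranes, starts 14.8 kb from the RefSeq start of Slc25a28 on the other strand. It stood at 5.00, 6.15, 3.24, 4.12 and 4.13 CPM in knockout replicates 1 to 5, against 3.65, 3.40 and 3.06 CPM in control replicates 1 to 3. Of the knockouts, 4 lay above all controls and replicate 3 lay among them, with a log2 fold change of 0.43 (SE 0.199, adjusted p = 0.493 by edgeR).

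Cox15 (ENSMUSG00000040018, minus strand, 43733254 to 43753000), the heme A synthase, stood at 28.8, 30.4, 38.02, 28.6 and 26.2 CPM in the knockouts, against 31.9, 31.1 and 26.7 CPM in the controls. The groups overlapped, and the log2 fold change of 0.02 had a 95% interval from -0.25 to 0.30. Cutc (ENSMUSG00000025193, plus strand, 43752996 to 43768638), related to a bacterial copper homeostasis protein, averaged 10.7 ± 1.61 CPM in knockout and 10.5 ± 1.27 CPM in control (SD, n = 5 and 3), with a 95% interval of the log2 fold change from -0.29 to 0.33. Both genes of the divergent pair differed by less than the spread between replicates, and among the samples numbered 82 both had negative fold changes (log2, -0.12 for Cox15 and -0.13 for Cutc).

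Got1 (ENSMUSG00000025190, minus strand, 43499752 to 43524605), 164 kb before Slc25a28, spread widely within the groups. It stood at 212, 254, 111, 190 and 290 CPM in the knockouts, against 394, 533 and 130 CPM in the controls. Knockout replicate 3 and control replicate 3 had the lowest levels of their groups. Its log2 fold change was -0.73 (SE 0.405, adjusted p = 0.557 by edgeR), and ran between -1.12 and -0.31 on omission of single libraries, nearest 0 without control replicate 2.

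Farther before Slc25a28, Hps1, a subunit of a complex for lysosome-related organelles, averaged 7.69 ± 0.678 CPM in knockout and 7.81 ± 1.72 CPM in control (SD, n = 5 and 3). Pyroxd2 (ENSMUSG00000060224, minus strand, 42725858 to 42752775), of the pyridine nucleotide-disulfide oxidoreductases, stood at 12.6, 11.6, 9.95, 8.19 and 10.2 CPM in the knockouts, against 17.1, 20.7 and 11.3 CPM in the controls. The knockouts lay below the first and second control, and 3 of them below the third as well (log2 fold change -0.64 ± 0.195 SE, edgeR adjusted p = 0.31). The collagen cross-linking enzyme gene Loxl4 ranged from 4.19 to 35.1 CPM in knockout and from 1.66 to 31.3 CPM in control, so both groups held low and high livers. R3hcc1l and Zfyve27, which encodes protrudin, had log2 fold changes of -0.04 and -0.01 (SE 0.0888 and 0.0812, adjusted p = 0.90 and 0.982 by edgeR).

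On the other side of Slc25a28 beyond Cutc, ENSMUSG00000074828, which has no symbol in the table, ranged from 29.7 to 63.3 CPM in knockout and from 13.2 to 43.9 CPM in control. Dnmbp, a scaffold protein that activates Cdc42, averaged 28.0 ± 3.06 CPM in knockout and 24.3 ± 3.43 CPM in control. Cpn1, the catalytic subunit of the plasma enzyme carboxypeptidase N, averaged 297 ± 10.8 CPM in knockout and 320 ± 19.4 CPM in control (SD, n = 5 and 3). Their log2 fold changes were 0.69, 0.20 and -0.11 (edgeR adjusted p from 0.544 to 0.682). The 18 tested genes within 1 Mb had a median log2 fold change of -0.03, and 15 of them had a 95% interval inside a 2-fold change in either direction.

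Cwf19l1, named after the fission yeast splicing factor Cwf19, was the nearest gene whose groups did not overlap. Cwf19l1 (ENSMUSG00000025200, minus strand, 44108644 to 44135876) starts 445 kb after Slc25a28. It stood at 17.0, 14.6, 13.9, 15.9 and 16.8 CPM in the knockouts, against 23.2, 20.2 and 18.6 CPM in the controls, so every knockout lay below every control. The log2 fold change of -0.40 ± 0.105 (SE) did not pass by edgeR (adjusted p = 0.227) or by DESeq2 (adjusted p = 0.0683). The small nucleolar RNA gene Gm24336 lies inside Cwf19l1 on the same strand and had a log2 fold change of -0.02 ± 0.157 (SE). Hif1an, the asparaginyl hydroxylase that acts on hypoxia-inducible factors, lies 899 kb after Slc25a28 and averaged 29.8 ± 2.95 CPM in knockout and 25.9 ± 1.69 CPM in control (SD, n = 5 and 3, edgeR adjusted p = 0.492).

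**Figure D3:**
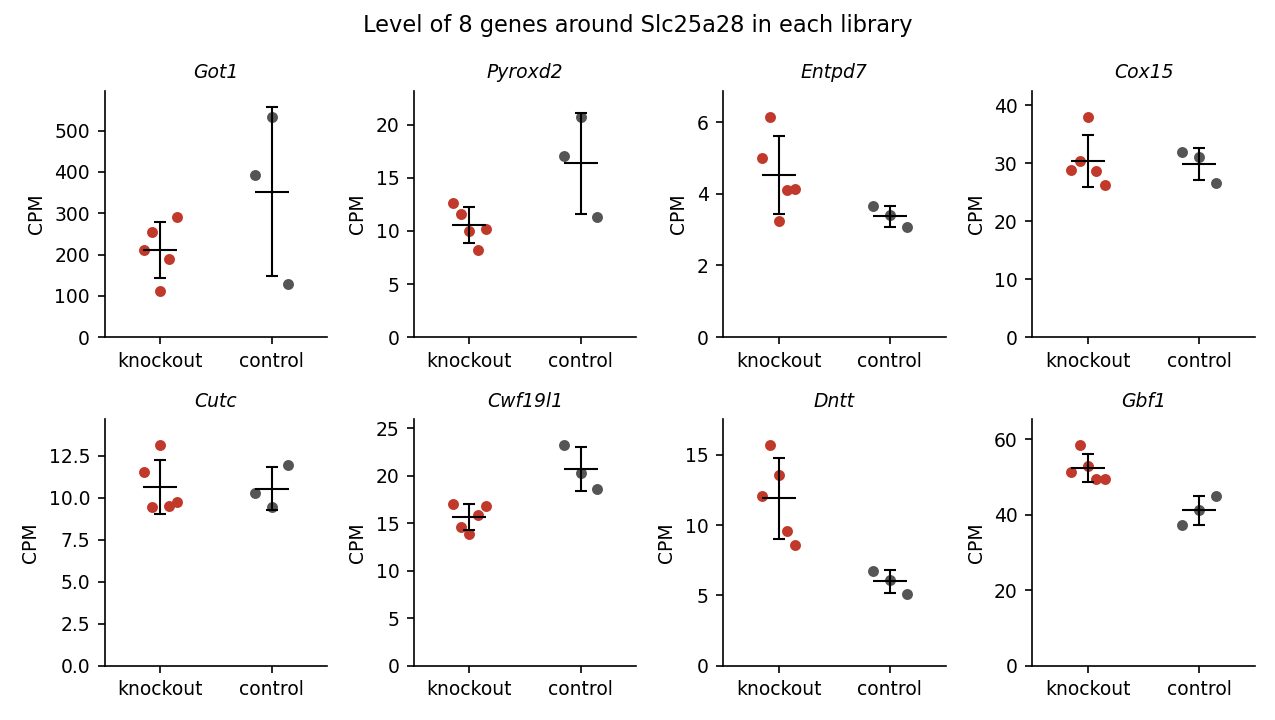
Level in CPM of 8 flanking genes in each of the 5 knockout and 3 control libraries (points), with the mean and SD of each group (black). Cox15 and Cutc overlap between groups, Got1 and Pyroxd2 spread most among controls, and Cwf19l1, Dntt and Gbf1 do not overlap between groups.

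Farther away, Dntt was the flanking gene with the smallest p among those higher in knockout. Dntt, which encodes the enzyme that adds nucleotides at the junctions of antigen receptor genes in lymphocytes, lies 2.63 Mb before Slc25a28 (ENSMUSG00000025014, plus strand, 41029275 to 41059523). It stood at 12.1, 15.7, 13.6, 9.61 and 8.57 CPM in the knockouts, against 6.76, 6.12 and 5.11 CPM in the controls. Every knockout lay above every control, at 1.98 times the control level (log2 fold change 0.99 ± 0.204 SE). The edgeR adjusted p was 0.137, between 0.133 and 0.342 with single libraries left out, and the DESeq2 adjusted p was 0.000963. In the samples numbered 82 alone, with 2 knockouts and 3 controls, the log2 fold change was 0.60 (edgeR adjusted p = 0.373).

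Blnk, an adaptor of the B cell receptor and the neighbour of Dntt, averaged 3.22 ± 0.434 CPM in knockout and 1.74 ± 0.862 CPM in control (SD, n = 5 and 3), with a log2 fold change of 0.88 (SE 0.280, adjusted p = 0.335 by edgeR). Its groups overlapped, with control replicate 1 at 2.72 CPM and knockout replicate 3 at 2.57 CPM. On omission of single libraries the log2 fold change of Blnk ran between 0.67 and 1.38. Gm340 and AI606181, about 2.1 Mb before Slc25a28 and named after their values were seen, had log2 fold changes of 0.39 and 0.98 (edgeR adjusted p = 0.368 and 0.316). Among tested genes, Blnk lies next to Dntt, and Gm340 next to AI606181. Between Dntt and Gm340 lie Tm9sf3, Pik3ap1 and Lcor with log2 fold changes of 0.04, 0.10 and 0.01, so the 4 genes form no unbroken run. These 4 genes were picked after their values were seen. The lymphocyte genes Cd79b and Ptprc had log2 fold changes of 0.06 and 0.00, with Cd79b at 0.993 to 2.22 CPM in knockout and 0.964 to 1.71 CPM in control. The 5 lymphocyte markers, of which 2 had enough counts to be tested, summed to 24.98 to 40.8 CPM in knockout and 21.02 to 37.05 CPM in control, and their part in the levels of Dntt and Blnk was not tested.

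**Figure D4:**
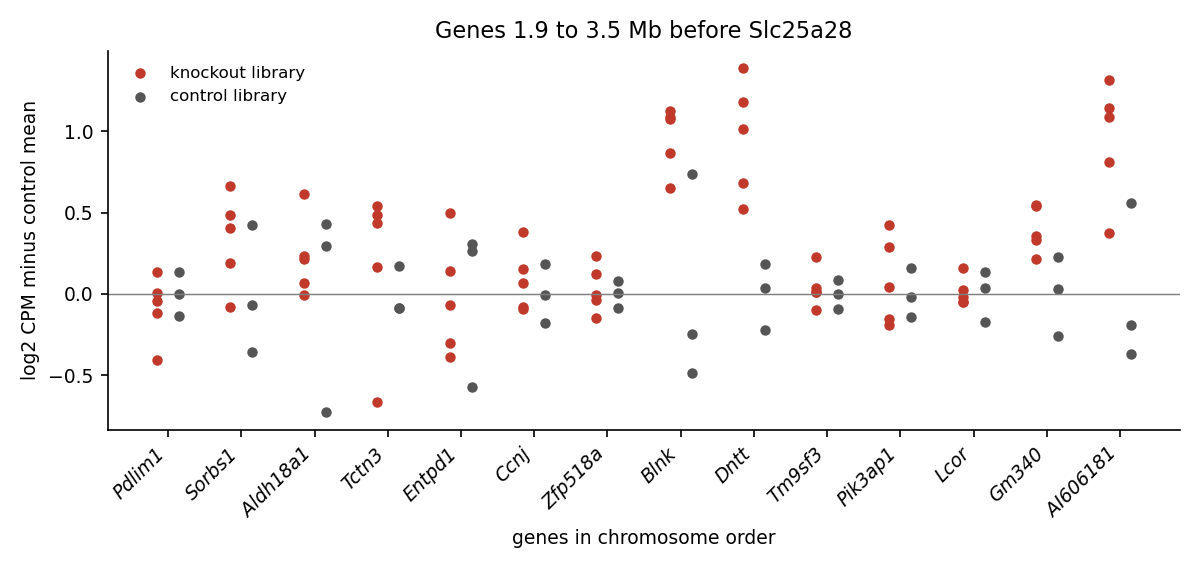
Log2 CPM of each library minus the control mean, for the 14 tested genes that start between 1.9 and 3.5 Mb before Slc25a28, in chromosome order; red points are knockout and dark grey points control libraries. Dntt has all knockout points above all control points, while Tm9sf3, Pik3ap1 and Lcor beside it are centred near 0.

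1500017E21Rik had the smallest p of all flanking genes and was named after its values were seen. This transcript (ENSMUSG00000087579, minus strand, 36614052 to 36705641) starts 7.05 Mb before Slc25a28. It stood at 55.6, 35.0, 44.9, 26.2 and 31.7 CPM in the knockouts, against 116, 74.3 and 84.4 CPM in the controls. Every knockout lay below every control, with a log2 fold change of -1.24 (SE 0.232, adjusted p = 0.0975 by edgeR, DESeq2 adjusted p = 0.000126). It overlaps the ubiquitin ligase gene Hectd2 on the other strand, which had 2.83 ± 0.461 CPM in knockout and 2.44 ± 0.176 CPM in control (SD, n = 5 and 3). The libraries were stranded, but whether counting used the strand was not stated, so without strand the reads of overlapping partners could not be separated, and 36 of the 241 flanking genes overlap a gene on the other strand.

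Among flanking genes at higher levels in knockout, Gbf1, an activator of Arf proteins at the Golgi, stood at 51.4, 58.4, 52.9, 49.5 and 49.6 CPM in the knockouts, against 37.3, 41.3 and 44.9 CPM in the controls. The groups did not overlap (log2 fold change 0.35 ± 0.0898 SE, edgeR adjusted p = 0.227). Fam160b1, the chromatin remodeller Smarca2, the immune checkpoint ligand Cd274, the titin splicing regulator Rbm20, the Golgi trafficking gene Ric1 and Cacul1 also had knockouts above all controls. Their log2 fold changes were 0.42, 0.29, 0.54, 0.92, 0.23 and 0.20 (edgeR adjusted p from 0.321 to 0.442), and they lie 10.01 to 17.1 Mb from Slc25a28. A1cf, the cofactor of apolipoprotein B mRNA editing, was at 177 to 232 CPM in knockout and 106 to 186 CPM in control, with control replicate 3 inside the knockout range.

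Among flanking genes at lower levels in knockout, Hhex, a homeobox factor of liver development, stood at 24.4, 30.8, 30.5, 33.4 and 36.99 CPM in the knockouts, against 28.4, 61.1 and 63.2 CPM in the controls. Control replicate 1 lay inside the knockout range, and without it Hhex passed (edgeR adjusted p = 0.0408), against 0.357 with all libraries and up to 0.63 without another single library. Fam204a and the lipase family gene Lipo1 had all knockouts below all controls, with log2 fold changes of -0.28 and -0.64 (edgeR adjusted p = 0.39 and 0.453). Sfr1, a partner of homologous recombination, the kinase gene Slk and the polyadenylation factor gene Cstf2t had log2 fold changes of -0.40, -0.29 and -0.23, with overlap of the groups (edgeR adjusted p from 0.367 to 0.436).

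Flanking genes of mitochondria and iron showed no member at an unadjusted p under 0.05, 0 of 20 tested against 10.4% of all genes. No member was called by edgeR or DESeq2 after adjustment, and the median log2 fold change was 0.02, with 11 positive and 9 negative values. Mms19, which hands iron-sulfur clusters to DNA enzymes, averaged 23.7 ± 3.01 and 25.5 ± 0.641 CPM in knockout and control, and the complex I subunit Ndufb8 122.8 ± 16.5 and 137 ± 8.83 CPM (SD, n = 5 and 3). Their edgeR adjusted p was 0.761 for Mms19 and 0.667 for Ndufb8.

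Of 19 tested genes of liver metabolism, 1 was higher and 2 lower at an unadjusted p under 0.05, where 5.67% of all genes were higher and 4.68% lower, and none passed after adjustment. As3mt, the arsenite methyltransferase, averaged 72.7 ± 8.63 CPM in knockout and 60.7 ± 1.81 CPM in control. Hoga1, an aldolase of hydroxyproline breakdown, averaged 114 ± 15.6 and 141 ± 13.2 CPM in knockout and control (SD, n = 5 and 3, edgeR adjusted p = 0.436). Pyroxd2 is the other lower gene. Genes for secreted proteins had 0 of 6 at that p, against 10.4% of all genes, with a median of -0.10. By the authors' FPKM, which divides by length, the most abundant flanking gene was Rbp4, the plasma carrier of retinol, at a mean of 739 FPKM in knockout and 659 in control, followed by the lectin gene Mbl2 at 554 and 591.

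Of 13 tested immune and interferon genes, 2 were higher (Blnk and Cd274) and 1 lower at an unadjusted p under 0.05, none after adjustment, where 5.67% of all genes were higher and 4.68% lower. Ifit1, induced by interferon, ranged from 9.62 to 44.6 CPM in knockout and from 13.1 to 15.1 CPM in control. Of 15 tested genes of growth and division, Hhex alone, lower in knockout, stood at that p, against 10.4% of all genes in both directions.

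The knockout livers were also compared with the controls one at a time. The share of the 226 genes that lay outside the range of the 3 controls was 59.7%, 61.9%, 54.9%, 49.6% and 53.5% in knockout replicates 1 to 5. Over all genes tested these shares were 57.5%, 59.3%, 56.7%, 52.6% and 56.2%. Within 2 Mb they were 58.7%, 56.5%, 54.3%, 41.3% and 58.7% of 46 genes, with replicate 4 the lowest. The log2 fold change of the flanking genes had a Spearman's rho with transcript length of 0.24, and over all genes it was 0.22, as a description over genes of the same libraries, and the part of length in single fold changes was not tested.

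In the samples numbered 82 alone, 20 of 231 flanking genes (8.66%) stood at an unadjusted p under 0.05, against 8.93% of all genes, and none was called. No control is numbered 85, so for knockout replicates 1 to 3 the number and the genotype cannot be told apart. The count of 30 flanking genes was 18 without control replicate 1, 19 without control replicate 2 and 18 without knockout replicates 1 and 2, where 6.54%, 8.1% and 7.11% of all genes stood at that p.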

How the data were processed

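Per the labels' protocols, liver RNA was treated with DNase and made into stranded total RNA libraries after removal of ribosomal RNA. Per the submitters' processing notes, Novoalign 2.8, the build mm10 and DESeq2 were used. No source names the program that counted reads or its strand setting. The deposited counts, whole numbers for each gene, entered every test. The FPKM values were made by the authors and serve only to compare levels between genes. The deposited regularised log2 values, the authors' log2 fold change and their score for the adjusted p were not used. Table starts count from 0, and 1 was added, which matched GENCODE M21 for 132 of 222 flanking genes found there.

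In R 4.3.3, filterByExpr of edgeR 4.0.16 (min.count 10, min.total.count 15) kept 14664 genes. Counts were scaled by TMM and compared by edgeR's two-sided quasi-likelihood test on group alone, with Benjamini-Hochberg adjustment over all genes and a threshold of 0.05. CPM used TMM-scaled totals, and log2 CPM a prior count of 2. Standard errors were taken from the log2 fold change and the F statistic, and 95% intervals use the test's degrees of freedom. DESeq2 1.42.0 and limma-voom (limma 3.58.1) on the same genes were alternatives, with RLE scaling, other filters, thinning and omitted samples. Procedures were tested on simulated data. Replicates of each group differed by 28.1 to 77.3 in chi-square per gene, more than sampling noise gives, so all 8 libraries were kept. Figures used matplotlib 3.10.9.

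Named genes were the 6 nearest tested genes on each side of Slc25a28, any past the adjusted threshold, the 10 smallest p-values per direction with average log2 CPM of at least 1 (predicted genes left out), and up to 2 per direction from each of 5 lists at an unadjusted p under 0.05, or else the smallest p. This gave 34 genes, and some results are not reported here. Cep55, Slit1, Ankrd22, Cnnm1, Gm24336, Hectd2, Tm9sf3, Pik3ap1, Lcor, Mms19, Ndufb8, Rbp4, Mbl2, Ifit1 and the genes at the edges lie outside this rule and were named after their values were seen. Members and lists were chosen with earlier results of these data known.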

Additional observations from a re-analysis of the deposited data

Results flagged for a closer look

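The share of the 46 tested genes within 2 Mb of Slc25a28 that lay outside the control range was 41.3% in knockout replicate 4, against 54.3% to 58.7% in the other 4 knockout livers. The gap to the next library took 0.747 of the range of the group, above the critical value of 0.71 for 5 samples. It was the only one of 38 groups of 5 knockout libraries past that value, and chance passes about 1 in 20.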

How the results depend on the processing

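Adjusted calls among the flanking genes stayed at 0 with limma-voom, RLE scaling, both other filters, thinning, the samples numbered 82 alone, omission of knockout replicates 1 and 2, and the left-out symbols added back. They were 2 with DESeq2 (Dntt and 1500017E21Rik) and 0 to 1 with single libraries left out, the 1 being Hhex without control replicate 1. The count of 30 genes at an unadjusted p under 0.05 ranged from 18 to 38 with single libraries left out, where 6.54% to 13.7% of all genes stood at that p. It was 18 without knockout replicates 1 and 2 (7.11% of all genes). By distance, the counts of 4, 9, 3 and 14 ranged from 3 to 10, 4 to 10, 2 to 5 and 6 to 18 with single libraries left out. The share of all genes moved between the same 6.54% and 13.7%. Between 2 and 5 Mb the count was 16 with the left-out symbols added back (10.4% of all genes). Between 5 and 10 Mb it was 5 with DESeq2 (10.4% of all genes) and 6 with the replicate block (9.19% of all genes). Between 10 and 20 Mb it was 6 in the samples numbered 82 (6.82%, against 8.93% of all genes). It was 7 there without knockout replicates 1 and 2 (8.14%, against 7.11% of all genes). Genes without overlap of the groups, 18 in all, were 63 in the samples numbered 82 (26.8% of all genes did not overlap there), 30 without knockout replicates 1 and 2 (12.5% of all genes), and 19 to 45 with single libraries left out (8.43% to 17.1% of all genes), where fewer samples make separation easier. The median log2 fold change lay between 0.0171 and 0.0451 and its size without sign between 0.13 and 0.18 with single libraries left out, and that size was 0.17 in the samples numbered 82. The cause of these shifts was not tested otherwise.

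Deviations of same-numbered knockout and control samples correlated at 0.07, 0.06 and -0.08. Samples of unlike number were not compared, so these values cannot decide whether replicate numbers pair the samples. With the replicate block on replicates 1 to 3 of both groups, 0 flanking genes were called, against 12 of all 14519 genes. At an unadjusted p under 0.05 stood 27 of 222 flanking genes (12.2%), against 9.19% of all genes. Of 476 fold changes of named genes under alternatives, 452 kept direction and side of the threshold, 2 newly passed (Dntt by DESeq2, and Hhex) and 22 turned sign, in 5 genes near 0. These were Hps1 by limma-voom (0.012), R3hcc1l in the samples numbered 82 (0.0498) and without knockout replicates 1 and 2 (0.0152), Zfyve27 by DESeq2 (0.0023), RLE scaling (0.00092) and in the samples numbered 82 (0.0207), and Cox15 and Cutc in the samples numbered 82 (-0.12 and -0.13). With single libraries left out, their log2 fold changes ranged from -0.159 to 0.172 for Hps1, from -0.0847 to 0.031 for R3hcc1l, from -0.0406 to 0.0282 for Zfyve27, from -0.0626 to 0.0836 for Cox15 and from -0.0617 to 0.128 for Cutc. At this depth, genes under about 10 counts in each library were not testable.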
